A study of Mus musculus with 7 samples.

Results

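The major urinary protein (Mup) cluster of chromosome 4 was examined at 7 of its genes, Mup1, Mup2, Mup3, Mup4, Mup5, Mup20 and Mup21. They are 7 of the 22367 protein-coding genes of the annotation, and the members here are the hotspots that touched the annotated gene or the 20 kb on either side of it. A hotspot is a stretch of the genome in which the authors' caller found more nuclease cuts than its background allowed. These windows held 62 of the 190871 hotspots listed, which were 17 of 60910 for Benzonase, 18 of 57675 for Cyanase and 27 of 72286 for DNase I.

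Livers came from 8-week-old male C57BL/6 mice with no transgene or treatment named. For Benzonase and Cyanase, endonucleases that stay active in strong detergent, powder of frozen liver was digested without isolating nuclei at 0.25, 1 and 4 U, and 1 list was called per enzyme from the 3 digests together. The DNase I list came from nuclei of fresh liver and, per its header, pooled 2 libraries. Each nuclease is therefore represented by 1 pooled list of positions with no counts, so the depth behind a hotspot is unknown, no spread between replicates can be given, and no p-value is printed. Nuclease, tissue state (frozen or fresh) and preparation (tissue powder or nuclei) cannot be told apart between DNase I and the other nucleases, and in whole liver fewer open cells and a less open site in each cell cannot be told apart either.

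Mup genes encode small lipocalins that the liver secretes in large amounts, that pass into urine and that carry volatile pheromones. Their hepatic transcription is known to depend on pulsatile growth hormone acting through STAT5 and to be high in males. Mup1 and Mup2 belong to the closely similar group in the middle of the cluster that is expressed in liver. Mup3 is also a liver gene, Mup20 encodes darcin, a protein of male urine that attracts females, and Mup4 and Mup5 are known for expression in nasal, lachrymal or salivary glands.

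The defining hepatocyte genes fitted the label. All 10 of the hepatocyte markers (among them Alb, Ttr and Apoa1) had a transcription start site (TSS) inside a hotspot in all 3 lists. Of 6 genes listed for other tissues, 5 had none in any list. The exception was Gfap, with Benzonase and Cyanase, and whether cells of the liver express it was not tested. Of 6 Kupffer cell markers found, the TSS lay in a hotspot for 1 with Benzonase, 1 with Cyanase and 5 with DNase I, and of 4 stellate cell markers for 3, 4 and 0. Of 6 endothelial markers 4, 4 and 2 did so, and of 4 bile duct markers 2, 1 and 1. The part of these other cells in the hotspots of the Mup windows was not tested.

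The sequence of the cluster limits what aligned tags can show, so promoters of 6 of the genes are printed first. Each line gives the 120 bases before the TSS of the transcript numbered 001, read 5′ to 3′ on the gene's minus strand of mm9, and capitals mark runs of at least 7 A. They are shown because the copies differ there in how much of the sequence occurs nowhere else.
Mup4, chr4:59973583-59973702: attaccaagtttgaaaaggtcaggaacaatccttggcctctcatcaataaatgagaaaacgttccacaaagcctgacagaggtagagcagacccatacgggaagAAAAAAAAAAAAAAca
Mup2, chr4:60152770-60152889: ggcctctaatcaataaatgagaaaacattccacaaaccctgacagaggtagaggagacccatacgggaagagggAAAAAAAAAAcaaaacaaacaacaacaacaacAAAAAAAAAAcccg
Mup1, chr4:60514833-60514952: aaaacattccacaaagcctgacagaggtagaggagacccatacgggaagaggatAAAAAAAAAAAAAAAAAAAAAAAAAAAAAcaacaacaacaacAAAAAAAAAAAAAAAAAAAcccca
Mup20, chr4:61715193-61715312: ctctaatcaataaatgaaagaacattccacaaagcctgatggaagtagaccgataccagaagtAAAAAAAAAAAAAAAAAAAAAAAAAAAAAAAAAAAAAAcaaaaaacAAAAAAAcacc
Mup3, chr4:61748377-61748496: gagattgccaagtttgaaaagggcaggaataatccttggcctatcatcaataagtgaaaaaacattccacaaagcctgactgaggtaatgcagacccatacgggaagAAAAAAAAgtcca
Mup21, chr4:61811898-61812017: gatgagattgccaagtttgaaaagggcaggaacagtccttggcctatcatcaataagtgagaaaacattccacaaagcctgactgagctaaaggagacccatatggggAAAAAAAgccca

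An A-rich tract ended each of these promoters, and its length differed between the copies. The longest run of A was 7 bases in Mup21 and 8 in Mup3, against 29 in Mup1 and 38 in Mup20. In Mup4 and Mup2 it was 14 and 10 bases. A made up 43.3% of the last 60 bases of both Mup3 and Mup21, 85% of those of Mup1 and 88.3% of those of Mup20. Over the 300 bases before the TSS, pairwise identity between the 7 promoters ran from 55.2% (Mup1 and Mup21) to 91.8% (Mup3 and Mup21). Between the spliced transcripts it ran from 62.2% (Mup1 and Mup21) to 99.5% (Mup1 and Mup2).

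Of 7 short motifs searched on both strands in those 300 bases, 4 were in none of the members. These were TTCNNNGAA (the palindrome of STAT5), TTGCGCAA (C/EBP), TGTTTAC (forkhead factors) and GTTAAT (an arm of the HNF1 palindrome), which 8.04%, 0.197%, 3.34% and 7.09% of all 22367 promoters of this length held. TGTTCT, an arm of the glucocorticoid receptor palindrome, was in Mup20, Mup3 and Mup21 and in 16.8% of all promoters. CCAAT was in Mup1 and Mup2 (38.8% of all), and TATAAA was in Mup5 and Mup20 (14.4% of all). None of these letter strings contains another, and a match is a string of letters only.

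The 7 genes fell into 2 kinds by how much of the sequence near the TSS occurs once in the genome. Uniqueness was measured as the share of positions at which the 36 bases read from there occur once in mm9 on either strand, the length being a choice of this work because the read length is not given in the sources used here. Within 1 kb of the TSS it was 88.1% for Mup21, 82.4% for Mup3, 81.4% for Mup5 and 79.6% for Mup4. It was 17.2% for Mup20, 4.15% for Mup1 and 3.2% for Mup2. Over all protein-coding genes the median was 99%. The grouping did not hold farther out. Over the 20 kb before the TSS the share was 81.6% for Mup5, 67.1% for Mup3 and 58.7% for Mup20. It was 31.8% for Mup4, 29.2% for Mup21, 7.4% for Mup2 and 3.56% for Mup1. In the 120 bases printed above the share was 98.3% for Mup21, 93.3% for Mup3 and 91.7% for Mup4. There it was 10% for Mup1, 7.5% for Mup2 and 5% for Mup20. It did not follow the length of the A runs throughout, since the longest run was 14 bases in Mup4 and 10 in Mup2.

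In the low group the same 36 bases recurred many times. The median position within 1 kb of the TSS occurred 11 times in mm9 for Mup1 and for Mup2 but 2 times for Mup20, and 1 time for the other 4 genes. Over all windows together (379 kb in 6 blocks, since those of Mup20 and Mup3 overlap) 35.8% of positions were unique. A tag from a repeated position cannot be placed with certainty. For Benzonase and Cyanase the authors stated library depth in uniquely aligning tags, and what was done with the other tags before hotspots were called is not given in the sources used here. A gene with no hotspot in such sequence is therefore not shown to be closed.

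**Figure D1:**
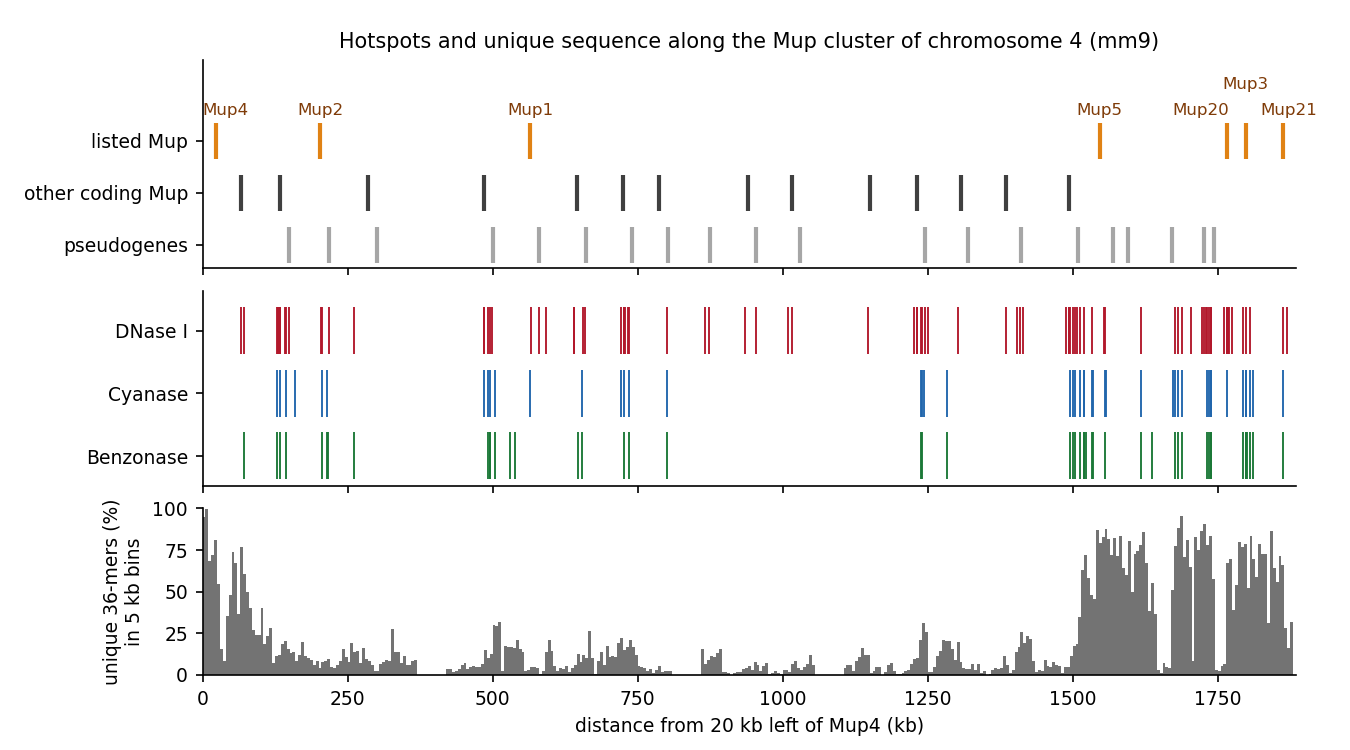
Map of the Mup cluster, with distance in kb from a point 20 kb left of Mup4 on the x axis. The top panel marks the TSS of the 7 listed genes, the 14 other coding Mup genes and the 20 Mup pseudogenes, the middle panel marks the centre of each hotspot, and the bottom panel gives the percent of unique 36-mers in 5 kb bins, with blanks at assembly gaps (150 kb in all). Long stretches of unique sequence lie at both ends, towards Mup4 on the left and from Mup5 to Mup21 on the right.

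Benzonase listed a hotspot in the window of 4 of the 7 genes, Cyanase of 6 and DNase I of 6. Among all protein-coding genes the shares with a hotspot in the same kind of window were 82.2% for Benzonase, 80.7% for Cyanase and 79.3% for DNase I. The TSS itself lay in a hotspot for 2 of 7 genes with Benzonase, 3 with Cyanase and 3 with DNase I. The corresponding shares of all protein-coding genes were 58.1%, 56.5% and 48.2%. Mup3 and Mup21 had the TSS in a hotspot of every list, Mup1 of the Cyanase list only, Mup20 of the DNase I list only, and Mup2, Mup4 and Mup5 of no list.

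**Figure D2:**
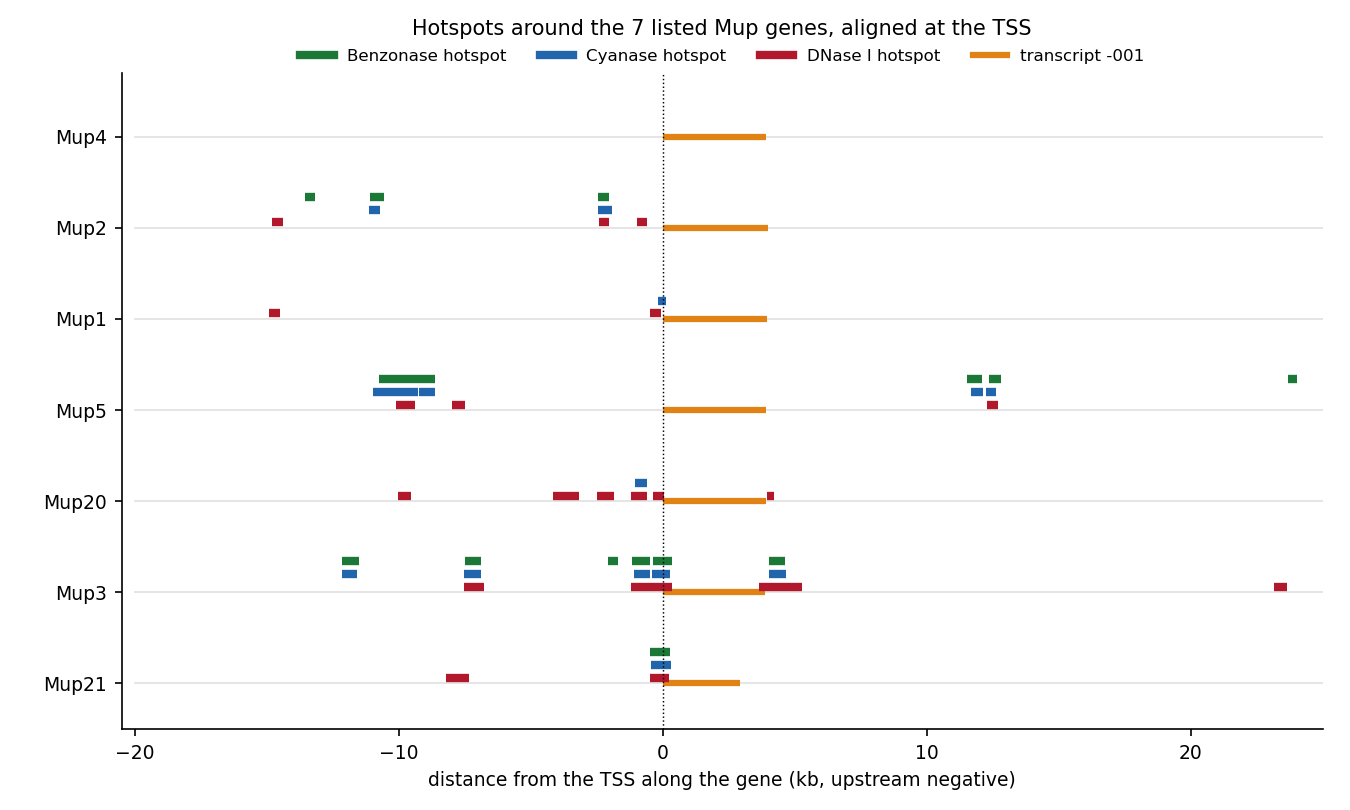
Hotspots around the 7 listed genes, drawn along the gene with the TSS of the transcript numbered 001 at 0 and distance in kb on the x axis, for the gene and 20 kb either side of that transcript. Mup4 has no hotspot, Mup3 and Mup21 have one of each colour over the TSS, and those of Mup5 keep at least 7504 bp from it.

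Mup3 had hotspots of all 3 nucleases at its TSS, at its 3′ end and farther upstream. It lies at chr4:61744510-61748376 on the minus strand and has 7 exons. Its window held 6 hotspots of Benzonase, 5 of Cyanase and 4 of DNase I. The TSS and the first exon were covered by Benzonase at chr4:61748021-61748754, by Cyanase at chr4:61748091-61748793 and by DNase I at chr4:61748011-61749588. The DNase I hotspot there, 1578 bp wide, ran on upstream over ground that Benzonase (chr4:61748865-61749538) and Cyanase (chr4:61748849-61749481) covered with a separate hotspot. Those upstream hotspots overlapped an exon of Gm12909, a non-coding transcript of the opposite strand whose start lay in a hotspot of every list. Benzonase alone had a further one at chr4:61750081-61750447.

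All 3 nucleases also marked the 3′ end of Mup3. Benzonase covered chr4:61743733-61744357 and Cyanase chr4:61743693-61744370, both just past the last exon. DNase I covered chr4:61743102-61744732, which is 1631 bp, the widest of its hotspots in the windows, and reached into that exon. Farther out, a site centred 7203 bp upstream by Benzonase, 7198 bp by Cyanase and 7148 bp by DNase I was common to the 3 lists. One centred 11833 bp upstream by Benzonase and 11866 bp by Cyanase had no DNase I hotspot.

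Mup21, at the right end of the cluster (chr4:61808966-61811897, 6 exons), had a single promoter hotspot in every list. It lay at chr4:61811635-61812384 with Benzonase, chr4:61811597-61812357 with Cyanase and chr4:61811669-61812385 with DNase I. The 3 intervals overlapped each other, were 750, 761 and 717 bp wide and were 87.3%, 87.5% and 86.8% unique. DNase I alone listed a 2nd hotspot in the window, centred 7773 bp upstream at chr4:61819227-61820114.

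Mup20 (chr4:61711268-61715192, 7 exons) was covered mostly by DNase I, which listed 6 hotspots in the window against 1 of Cyanase and 0 of Benzonase. The DNase I hotspot at the TSS, chr4:61715134-61715567, was 434 bp wide and 11.8% unique. The next one upstream was shared with Cyanase, at chr4:61715790-61716406 with DNase I and chr4:61715794-61716231 with Cyanase, 598 and 602 bp before the TSS. DNase I alone continued with chr4:61717060-61717698 and chr4:61718364-61719340, which were 92.5% and 84.4% unique, and with chr4:61724730-61725227, which also lies in the window of Mup3. It alone listed chr4:61710983-61711233, just past the 3′ end and with 251 bp the narrowest DNase I hotspot of the windows. The nearest Benzonase hotspot to the Mup20 TSS lay 25869 bp away, at chr4:61688687-61689323. For Mup20, then, DNase I hotspots without a partner lay both in repeated and in mostly unique sequence.

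Mup1 (chr4:60510884-60514832, 7 exons) had 1 Cyanase hotspot, over its TSS and first exon at chr4:60514712-60515022. With 311 bp it was the narrowest of the Cyanase list in the windows, and it was 9% unique. DNase I listed a hotspot that overlapped the Cyanase one but began 86 bp upstream of the same TSS, at chr4:60514918-60515314, and another centred 14704 bp upstream, at chr4:60529343-60529729. Benzonase listed none, and its nearest was 26931 bp downstream at chr4:60487546-60487901.

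Mup2 needs its annotation spelled out. The gene is annotated over chr4:60080259-60167161 because 1 transcript reads through the neighbouring Mup7 and another, a non-coding one, begins 14392 bp upstream of the main TSS, while the transcript numbered 001 spans chr4:60148804-60152769. Over the whole annotated gene and its flanks the lists held 6, 6 and 11 hotspots of Benzonase, Cyanase and DNase I. Around the 001 transcript alone they held 3, 2 and 3, and none of those lay inside it.

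Upstream of the 001 transcript of Mup2, DNase I listed chr4:60153358-60153743, which began 589 bp before the TSS and overlapped an exon of the non-coding transcript. All 3 nucleases listed the next site, at chr4:60154820-60155211 with Benzonase, chr4:60154708-60155210 with Cyanase and chr4:60154814-60155203 with DNase I. Benzonase (chr4:60163322-60163852) and Cyanase (chr4:60163471-60163886) shared one centred 10818 and 10909 bp upstream. Benzonase alone listed chr4:60165937-60166328, and DNase I alone chr4:60167171-60167560, which began 10 bp beyond the start of the non-coding transcript.

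The remaining hotspots of the annotated Mup2 gene surrounded Mup7. All 3 nucleases covered the Mup7 TSS, at chr4:60083105-60083619 with Benzonase, chr4:60083123-60083553 with Cyanase and chr4:60083102-60083644 with DNase I. A site centred between 9654 and 9656 bp upstream of it was also common to the 3 lists (chr4:60092709-60093165, chr4:60092714-60093165 and chr4:60092712-60093163). Inside the long Mup2 introns DNase I alone listed chr4:60083795-60084387, chr4:60090970-60091246 and chr4:60097808-60098166, and Cyanase alone chr4:60108730-60109092. Past the 3′ end of Mup7, 1 site was common to the 3 lists, at chr4:60078538-60079013, chr4:60078540-60079018 and chr4:60077932-60079016, and DNase I listed 2 more at that end of Mup7, over its last exon (chr4:60079031-60079475) and in an intron (chr4:60079608-60080032).

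Mup5 (chr4:61492353-61496267, 7 exons) had hotspots in its flanks and none within 5 kb of its TSS. The nearest began 8632 bp upstream with Benzonase (chr4:61504899-61506999), 8620 bp upstream with Cyanase (chr4:61504887-61505505) and 7504 bp upstream with DNase I (chr4:61503771-61504243). The Benzonase one, 2101 bp, was the widest of that list in the windows, and Cyanase had its own widest, 1680 bp, over the same ground at chr4:61505556-61507235. DNase I covered 734 bp there, at chr4:61505639-61506372. On the other side, Benzonase, Cyanase and DNase I shared a site centred 12579, 12430 and 12483 bp past the TSS, and Benzonase and Cyanase another that covered the start of the pseudogene Gm12572. At the window's edge Benzonase alone listed chr4:61472255-61472602.

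Mup4 (chr4:59969676-59973582, 7 exons), the outermost on the left, had no hotspot of any list in its window, although 59.7% of the window and 79.6% of the sequence within 1 kb of its TSS were unique. The nearest hotspots to its TSS were 32008 bp downstream for Benzonase (chr4:59941223-59941574), 96327 bp downstream for Cyanase (chr4:59876655-59877255) and 41726 bp upstream for DNase I (chr4:60015308-60015805). Mup4 and Mup5 were thus 79.6% and 81.4% unique around the TSS, somewhat below the 82.4% and 88.1% of Mup3 and Mup21, and the lists separated these 4 genes into a pair with a TSS hotspot in each list and a pair with none within 5 kb.

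Over the whole genome, the share of genes with a TSS hotspot was lower in the classes under 20% unique than in the more unique ones. Among the 555 protein-coding genes with under 5% unique positions within 1 kb of the TSS, which include Mup1 and Mup2, the TSS lay in a hotspot for 1.98% with Benzonase, 2.16% with Cyanase and 2.16% with DNase I. Among the 363 genes with 5 to under 20%, which include Mup20, the shares were 3.31%, 4.68% and 4.13%. This class holds 10 coding Mup genes, of which 8 had the TSS in a DNase I hotspot, and without them the shares of the other 353 genes were 3.12%, 4.25% and 1.98%. For DNase I this is below the 2.18% of the 550 genes under 5% that are no Mup genes, so the order of these lowest classes turned. Among the 2758 genes with 50 to under 90%, which include the other 4 members, they were 29.4%, 28.1% and 26.9%. Among the 18218 genes with 90% or more they were 66.5%, 64.6% and 54.6%. Repeated genes also differ from other genes in kind and expression, and the part of those differences was not tested.

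**Figure D3:**
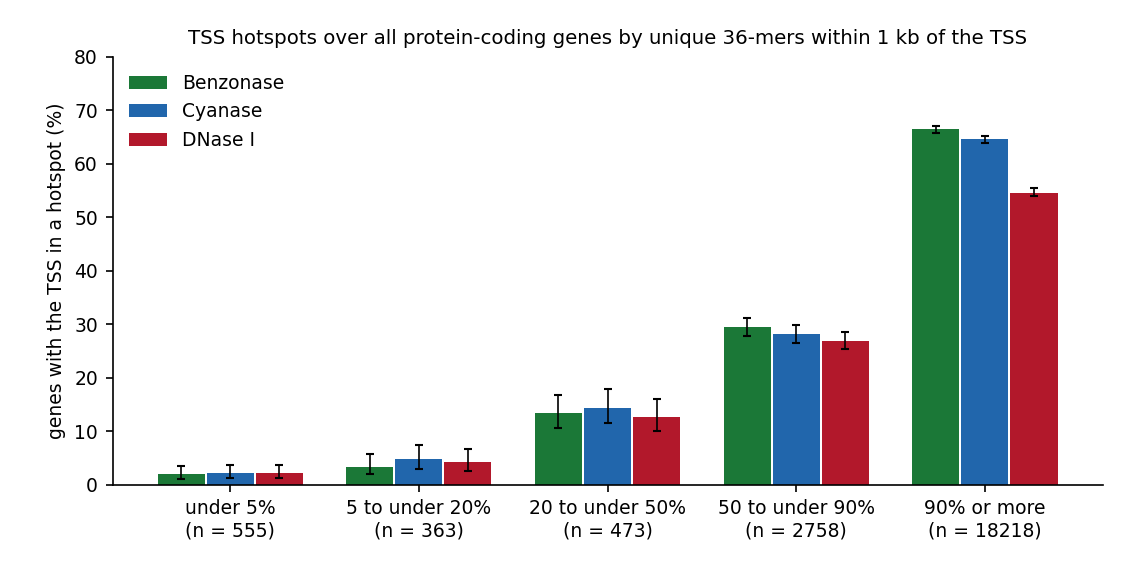
Percent of protein-coding genes with the TSS inside a hotspot (y axis) for each nuclease, by the share of unique 36-mers within 1 kb of the TSS (x axis), with the number of genes under each class. Bars start at 0 and error lines are 95% Wilson intervals, which cover counting error over genes only. The shares rise from about 2% in the least unique class (1.98% to 2.16%) to between 54.6% and 66.5% in the most unique.

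The hotspots of the windows sat in far less unique sequence than hotspots in general, in windows of which 35.8% of positions were unique. Their median uniqueness was 66.8% for Benzonase, 66.9% for Cyanase and 24.1% for DNase I, where the median over each whole list was 100%. Under 50% unique were 6 of 17 Benzonase, 7 of 18 Cyanase and 15 of 27 DNase I hotspots, against 1.73%, 1.8% and 1.52% of the whole lists. None of the 62 was less than 4.18% unique.

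Per megabase the windows held more hotspots than the genome, in each list. The genome value includes stretches far from any gene, and the density in like windows of other genes was not counted. There were 44.9 per Mb for Benzonase (23.8 over the called genome), 47.5 for Cyanase (22.5) and 71.3 for DNase I (28.3). Over the whole cluster from Mup4 to Mup21 the values were lower than in the windows, 26.1, 25 and 46.7 per Mb. These cluster values divide by the full span with its 150 kb of assembly gaps. The window and genome values count called bases only, so the cluster values are somewhat too low beside them. The window hotspots covered 2.77%, 2.79% and 4.42% of the windows against 1.88%, 1.72% and 2.03% of the genome. They were narrower than the lists as a whole, with medians of 531, 492 and 473 bp against 652, 641 and 649 bp. Their median GC content was 42.6%, 41.5% and 39%, where whole lists had 51.3%, 51.4% and 46.2% and the window sequence itself had 40.4%.

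Joining hotspots that overlapped by at least 1 bp gave 34 regions in the windows. Of these 10 (29.4%, 95% Wilson interval 16.8 to 46.2%) held all 3 nucleases and 15 (44.1%, 28.9 to 60.5%) DNase I alone. Over the genome the shares of 94491 regions were 40% and 28.3%. Benzonase and Cyanase without DNase I made up 3 regions (8.82%, against 10.2% over the genome) and Benzonase alone 3 (8.82%, against 9.31%). Cyanase alone made up 1 (2.94%, against 6.8%), and Cyanase with DNase I 2 (5.88%, against 1.98%). The DNase I regions without a partner had a median GC content of 38.2% and a median uniqueness of 16.4%, and the regions with all 3 nucleases 41.3% and 69.5%.

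Some of the hotspots recurred at like places in different copies, and others did not. In the whole cluster, from Mup4 to Mup21 (1.84 Mb), 21 coding Mup genes and 20 Mup pseudogenes are annotated, and the lists held 48 hotspots of Benzonase, 46 of Cyanase and 86 of DNase I. Of the 14 coding Mup genes outside the 7, the TSS lay in a hotspot for 1 with Benzonase (Mup7), 2 with Cyanase (Mup7 and Mup9) and 7 with DNase I (Mup7, Mup9, Mup11, Mup14, Mup16, Mup18 and Mup19). No pseudogene start did, but 12 of 20 had a DNase I hotspot within 1 kb, against 1 with Benzonase and 1 with Cyanase. Hotspots within 1 kb were not counted over all genes or other pseudogenes, so these counts compare the lists with each other only. Of the 14 annotated genes of the cluster without a Mup name, the start lay in a hotspot for Gm12909 (all 3 lists), Gm12572 (Benzonase and Cyanase) and Gm13775 (DNase I).

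**Figure D4:**
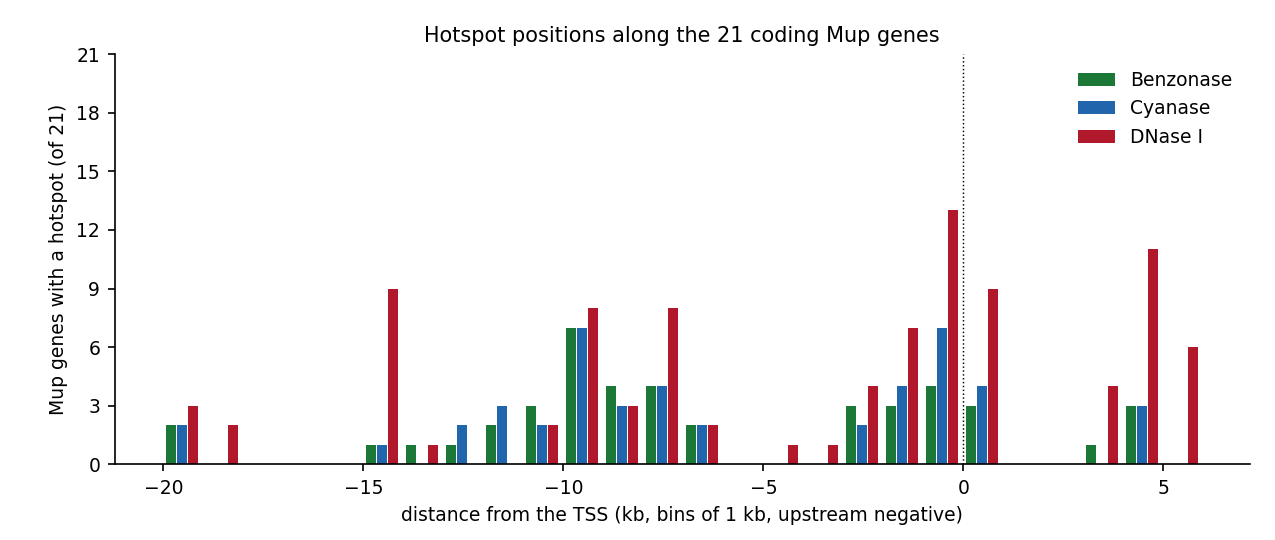
Number of the 21 coding Mup genes (y axis) with a hotspot in each 1 kb bin from 20 kb before to 6 kb after the TSS (x axis, kb), for each nuclease. A wide hotspot counts in every bin it touches. DNase I reaches 13 genes in the 1 kb before the TSS, where Benzonase has 4 and Cyanase 7, and the 3 lists come close to each other between 10 and 9 kb upstream with 7, 7 and 8 genes.

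Counted over the 21 coding genes, the places of recurrence differed between the nucleases. In the 1 kb before the TSS a hotspot was listed for 4 genes with Benzonase, 7 with Cyanase and 13 with DNase I. Between 15 and 14 kb upstream the counts were 1, 1 and 9, and between 4 and 5 kb past the TSS, around the 3′ end, 3, 3 and 11. Between 10 and 9 kb upstream they were 7, 7 and 8. The genes are copies of each other and share alignable stretches, so they are not independent, and no test was made. The same bins were not counted over other genes, so these counts compare the lists with each other only.

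Matching the window regions to the other copies in and around the cluster (at least 80% identity over at least 50% of the region) counted the same places by sequence in place of distance. Copies of the promoter and of the stretch just upstream formed 1 group of 42 places, of which 5 held a Benzonase, 8 a Cyanase and 26 a DNase I hotspot. The places include the 12 window regions that defined the group, each chosen because it held a hotspot, and over the 32 places that overlapped no window region the counts were 2, 3 and 16. This group took in the site 14704 bp upstream of Mup1 and the one 14596 bp upstream of Mup2, which lie just before the pseudogenes Mup-ps6 and Mup-ps2. Copies of the site between 9 and 12 kb upstream of Mup7, Mup5 and Mup3 formed a group in which 37 places overlapped no window region, and 8, 8 and 10 of these held a hotspot. Copies of the 3′ end had 36 such places, with 4, 4 and 10. Another group joined copies of the site centred 2246 bp upstream of Mup2 by Benzonase with those of chr4:60165937-60166328, chr4:61717060-61717698 and chr4:61750081-61750447. It had 41 such places, with 2, 3 and 2. Copies of the site past the 3′ end of Mup7 that was common to the 3 lists had 62, with 4, 4 and 14. Some of these places overlap the copies of the 3′ end, so a hotspot can count in both groups. Copies of the DNase I hotspots at chr4:60090970-60091246 and chr4:61503771-61504243 had 19, with 4, 4 and 6. Copies of the site centred 7203 bp upstream of Mup3 by Benzonase had 24, with 3, 2 and 2. The other groups recurred little or not at all. The copies of the DNase I hotspot in an intron of Mup7 (37 places), of the Cyanase hotspot at chr4:60108730-60109092 (35), of the Benzonase and Cyanase site centred 10818 bp upstream of Mup2 by Benzonase (16) and of the DNase I hotspot at chr4:61718364-61719340 (21) held no hotspot of any list outside the window regions. Those of the Benzonase hotspot at chr4:61472255-61472602 (38) held 1, 1 and 0. In addition, 2 of the 3 regions beyond the 3′ end of Mup5 had no other copy by this measure.

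Hotspots were listed for a smaller share of the copies that held the least unique sequence. Among the copies that overlapped no window region, 1 of 124 places under 5% unique held a Benzonase, 1 a Cyanase and 5 a DNase I hotspot. Of 135 places with 5 to under 20%, the counts were 8, 7 and 24. Of 43 places with 20 to under 50% they were 6, 9 and 11, and of 72 with 50% or more 9, 9 and 12.

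In the upstream stretch shared by most copies, the forkhead letters TGTTTAC stood at nearly the same distance from the TSS. The 120 bases around them, on the gene's minus strand of mm9, are printed for 3 members with a hotspot there, and capitals mark the motif, which reads GTAAACA on this strand.
Mup2, chr4:60153507-60153626: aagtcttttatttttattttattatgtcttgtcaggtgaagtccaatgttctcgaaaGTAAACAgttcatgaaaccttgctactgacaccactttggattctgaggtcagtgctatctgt
Mup20, chr4:61715940-61716059: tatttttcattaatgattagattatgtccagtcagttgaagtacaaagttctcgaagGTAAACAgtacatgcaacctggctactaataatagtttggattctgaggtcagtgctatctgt
Mup3, chr4:61749096-61749215: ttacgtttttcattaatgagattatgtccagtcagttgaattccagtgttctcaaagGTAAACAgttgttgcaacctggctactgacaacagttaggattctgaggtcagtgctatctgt

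The letters began 800 bp before the TSS in Mup2, 810 bp in Mup20, 782 bp in Mup3, 821 bp in Mup1 and 773 bp in Mup4, while Mup5 and Mup21 did not have them within 1 kb. Of the 21 coding Mup genes 19 had them, between 770 and 862 bp before the TSS, and 12.5% of all protein-coding genes had them anywhere in that 1 kb. This search was added after the sequences had been seen, and the copies share descent. A DNase I hotspot covered the letters in 9 of the 19 genes, a Cyanase hotspot in 3 and a Benzonase hotspot in 2. In the 9 with a hotspot, 17.9 to 92% of positions within 100 bp were unique (median 39.3%). Of the 10 without one, 8 had no unique position there, among them Mup1, while Mup10 had 17.9% and Mup4 100%. Mup4 therefore had the letters in sequence that occurs once, with no hotspot in any list.

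Within the window hotspots, TGTTTAC was in 2 of 17 for Benzonase (11.2% of the whole list), 3 of 18 for Cyanase (11%) and 9 of 27 for DNase I (13.9%). TGTTCT was in 9, 10 and 19 of them, where whole lists had it in 42.7%, 41.6% and 45.6%. TTCNNNGAA was in 1, 2 and 4, against 18.8%, 18.2% and 22.2%. TTGCGCAA was in none of the window hotspots and in under 1% of each list (0.384%, 0.355% and 0.369%). TATAAA was in 7, 6 and 15, against 23.1%, 22.7% and 32.8%, and CCAAT in 13, 13 and 20, against 58.9%, 58.2% and 62%. GTTAAT was in 3, 3 and 5, against 17.8%, 17.4% and 22.7%.

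The site between 9 and 10 kb upstream of Mup7 and of Mup5 shows how copies under a hotspot of every list differed in unique sequence. The middle 200 bases of the DNase I hotspot are printed for both, on the plus strand of mm9, and here capitals mark positions at which a 36-base sequence begins that occurs once in the genome.
Mup7 copy, in an intron of the annotated Mup2, chr4:60092837-60093036: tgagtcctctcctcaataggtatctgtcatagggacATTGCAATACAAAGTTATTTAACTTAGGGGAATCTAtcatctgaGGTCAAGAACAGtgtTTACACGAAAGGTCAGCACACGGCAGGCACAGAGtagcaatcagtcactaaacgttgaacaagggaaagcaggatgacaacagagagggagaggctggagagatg
Mup5 copy, intergenic, chr4:61505905-61506104: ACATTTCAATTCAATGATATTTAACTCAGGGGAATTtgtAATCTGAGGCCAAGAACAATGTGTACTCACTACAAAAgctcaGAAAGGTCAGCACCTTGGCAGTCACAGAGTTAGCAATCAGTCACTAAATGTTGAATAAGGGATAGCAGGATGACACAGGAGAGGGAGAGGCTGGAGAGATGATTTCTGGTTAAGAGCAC

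In the Mup7 copy 82 of these 200 positions were unique, and in the Mup5 copy 192. Around the Mup7 copy the 200 bp on either side of the hotspots had no unique position. There the edges of the Benzonase and Cyanase hotspots differed by 5 bp on the left and 0 bp on the right.

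Close edges made up a larger share of the pairs in the cluster than over all chromosomes. Among 35 pairs of a Benzonase and a Cyanase hotspot of the cluster that overlapped no other hotspot of either list, both edges were within 10 bp of each other in 5 (14.3%, 95% Wilson interval 6.26 to 29.4%), against 3.76% of 46300 such pairs in the genome. Between Benzonase and DNase I it was 4 of 32 (12.5%, 4.97 to 28.1%) against 0.977%, and between Cyanase and DNase I 4 of 34 (11.8%, 4.67 to 26.6%) against 0.93%. Of the Benzonase and Cyanase edges in the cluster, 17 of 39 were within 10 bp where under 50% of the 200 bp outside was unique, and 4 of 31 where more was. In the member windows alone the counts were 2 of 13, 2 of 9 and 1 of 11, and the median edge differences were 36, 29.5 and 86 bp. The first of these equals the genome-wide value of 36 bp, the next is below 74 bp and the last is above 72 bp. The pairs share the reference sequence, so the intervals cover counting error only.

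**Figure D5:**
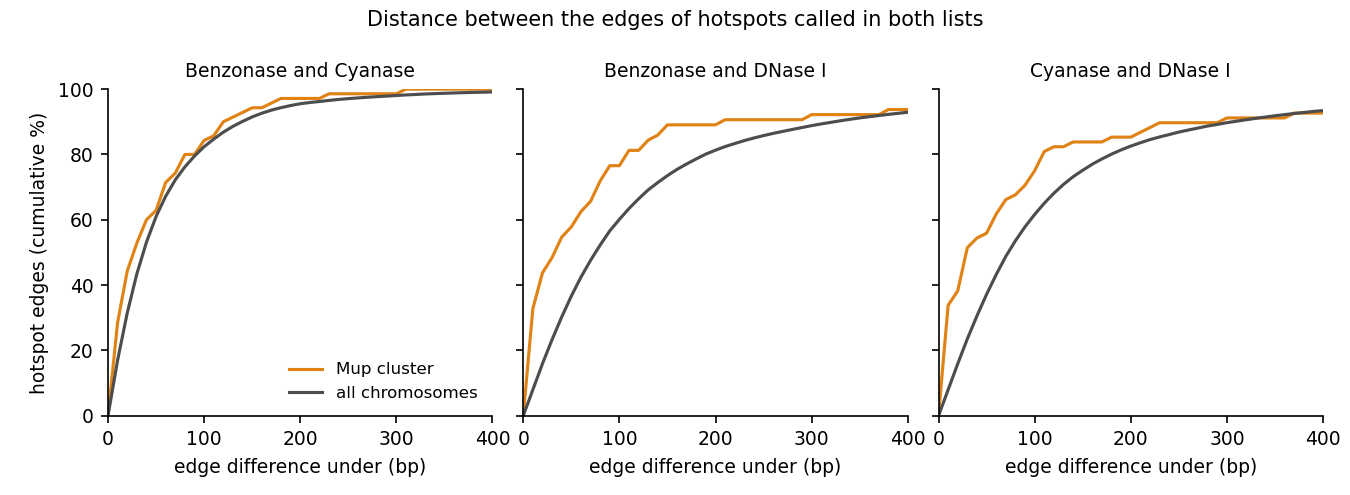
Cumulative percent of hotspot edges (y axis) by the distance in bp between the 2 nucleases' edges (x axis) for hotspots with a single partner in the other list, in the Mup cluster and over all chromosomes. The median differences in the cluster are 25.5, 32 and 27.5 bp for the panels from left to right, against 36, 74 and 72 bp over all chromosomes. The cluster values are not those of the member windows, which are 36, 29.5 and 86 bp.

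The neighbours of the cluster stood in nearly unique sequence. Left of Mup4, 1110054O05Rik and Snx30 had the TSS in a hotspot of all 3 lists and Slc46a2 in none. Right of Mup21, Slc31a2 and Fkbp15 had it in all 3 lists and Zfp37 in those of Benzonase and Cyanase. Their sequence within 1 kb of the TSS was between 93.7% and 100% unique.

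Genes of the growth hormone pathway and factors known to act on Mup transcription mostly had the TSS in a hotspot. Of 10 such genes, among them the growth hormone receptor Ghr, its kinase Jak2, the signal transducers Stat5a and Stat5b and the factors Zhx2, Bcl6 and Cux2, the TSS lay in a hotspot for 10 with Benzonase, 10 with Cyanase and 9 with DNase I, where the shares over all protein-coding genes were 58.1%, 56.5% and 48.2%. The exception was Cux2, a factor of female liver, which had hotspots of Benzonase and Cyanase. Of 19 other lipocalin genes found, 8 had the TSS in a hotspot of every list and 11 in none. The 8 were Ambp, the acute phase genes Orm1, Orm2 and Orm3, the retinol carrier Rbp4, Apom, C8g and Lcn2, and the 11 included the other genes with an Lcn name, Ptgds, Apod and Obp1a. No lipocalin of the list was split between the nucleases, and neither were Mup2, Mup3, Mup4, Mup5 and Mup21. Mup1 and Mup20 were split. Within 1 kb of the TSS these were 4.15% and 17.2% unique and Mup2, with no TSS hotspot in any list, 3.2%, where the listed lipocalins were between 82.3% and 100% unique. Splits also occurred in nearly unique sequence, as at Cux2 (99.9%), Marco (98.5%) and Des (100%), while none of the 10 hepatocyte markers was split. The part of repeated sequence in the splits was not tested.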

How the data were processed

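Chromatin of mouse liver was digested with Benzonase, Cyanase or DNase I and the released DNA sequenced. The authors aligned tags to mm9 with Eland or Bowtie. Their caller was run with the false discovery rate set to 0% and the mode of tag density as its lower limit. Per the file headers the deposited lists were adjusted for input and not merged. They hold start and end positions only. The 0.25, 1 and 4 U digests were pooled in each of the Benzonase and Cyanase lists.

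Positions are 1-based on mm9, with genes of GENCODE M1 on the same build. Overlap means at least 1 bp. Copies of each 36-mer were counted exactly over mm9, and the counting was tested on simulated sequence. Copies of regions were found with blastn 2.17.0 (expectation under 1e-10), and identities with Biopython 1.88 global alignments. Intervals are 95% Wilson. All hotspots in a member gene or within 5 kb of its TSS are named, with the nearest and widest per nuclease. The lists have no replicates, so nothing was tested. Copy groups, counts that leave out the window regions or the Mup genes, edge distances and the forkhead search beyond promoters were chosen after the data were seen. Members and gene lists were chosen with earlier results of these data known. Alternatives were other flanks, overlap rules, word lengths and widths. Columns of other samples numbered 0. The promoter sequence of Mup5 is not reported here.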

Additional observations from a re-analysis of the deposited data

How the results depend on the processing

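Of 72 recomputed values 30 moved. Counts and medians were taken to move when they changed by over 1.5 times, and coverage and unique shares when they left the 95% interval over bases, which is narrow, so that 15 of the 30 changed by at most 1.5 times. No paired analysis was possible because each nuclease has 1 pooled list. With 50 kb flanks Benzonase reached 7 of 7 windows in place of 4, above the 6 of Cyanase, and DNase I reached 7, so that the order of Benzonase and Cyanase turned, as it did for the number of hotspots. Counting a hotspot within 1 kb of a TSS gave 5 genes with DNase I in place of 3, and within 5 kb 5 genes with Cyanase and 5 with DNase I. Hotspots in the windows numbered, for Benzonase, Cyanase and DNase I, 7, 8 and 11 in gene bodies, 33, 30 and 47 with 50 kb flanks, and 10, 9 and 12 when the narrowest quartile of each list by width was left out. Without that quartile the members with a window hotspot were 4, 4 and 5 in place of 4, 6 and 6, and those with the TSS in one 2, 2 and 2 in place of 2, 3 and 3, so that these counts no longer differed between Benzonase and Cyanase, or between any lists at the TSS. Hotspot coverage of the windows was 2.66%, 2.63% and 3.54% in gene bodies, 3.56%, 3.61% and 6.51% with 10 kb flanks, and 2.94%, 2.69% and 4.18% with 50 kb flanks. With the 001 transcripts in place of whole annotated genes, an alternative chosen after seeing the data, coverage was 3.06%, 2.99% and 4.25%. The unique share of the windows was 26.5% with 25-mers, 43.8% with 50-mers, 20% in gene bodies and 42% around the 001 transcripts. With 50% of both hotspots required to overlap, 6 Benzonase hotspots had a partner in each other list. That count is of single hotspots, while the 10 sites common to all lists are joined regions. Depth per hotspot is unknown, and repeated sequence limits what an absence can show around the TSS of Mup1, Mup2 and Mup20.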
